A study of Homo sapiens with 12 samples.

Results

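Interferon-stimulated genes were followed through 14 days of osteogenic differentiation in SaOS-2 osteosarcoma cells and in their CD99 transfectants. The group was set by gene name. It held 46 genes, of 19775 genes with a probe set of their own on the array. A probe set naming the gene alone existed for 44 of the 46, and the one with the highest mean over 12 arrays stood for each gene (DDX58 is listed under its current name, RIGI). STAT2 and IFI30 had no such probe set and were not analysed here. RNA was hybridised to Affymetrix HG-U133 Plus 2.0 arrays, and values are log2 after robust multi-array average (RMA) processing. There were 6 groups of 2 arrays. Sa/CD99 denotes SaOS-2 cells stably transfected with CD99, a membrane glycoprotein, and selected with neomycin, and its 2 arrays on each day are 2 clones, wt22 and wt36. SaOS-2 denotes the untransfected parental line. Both were sampled at day 0 and after 7 and 14 days in osteogenic medium, which had less serum and contained ascorbic acid and β-glycerophosphate. No vector-only line was among the arrays, so transfection, selection and cloning cannot be told apart from CD99 itself, and time, serum and osteogenic supplements cannot be told apart from one another. The 2 arrays of SaOS-2 on each day were not labelled as separate cultures, so p-values measure the spread between arrays, which may be technical.

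Interferons are secreted proteins that bind cell-surface receptors and activate JAK kinases and STAT transcription factors. Type I interferons assemble ISGF3, in which IRF9 supplies most of the DNA binding and STAT2 is an essential partner, on promoter elements called ISREs, while type II interferon drives STAT dimers to GAS elements. The induced genes restrict viral replication by sensing RNA, blocking entry or translation, modifying proteins with ISG15 and changing membranes. In bone, interferon signalling is best known for limiting osteoclast formation, and IFITM proteins are also made by osteoblast-lineage cells. Many of these genes have a basal level without added interferon.

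Promoter windows from RefSeq on GRCh38.p14, running from 250 bases before a start site to 50 after, were found for 36 of the 46 genes. The letters GAAANNGAAA, an ISRE core read on both strands, occurred in 24 of these 36 genes (66.7%), against 4.38% of 27305 genes with a window. TTCNNNGAA, a GAS core that reads the same on both strands, occurred in 11 of 36 (30.6%), against 9.38%. A gene counted when any of its windows held the letters, and the 2 motifs can overlap. A match describes letters and is not evidence of binding. The 6 windows below are shown because the expression results turn on these genes: IFITM1 had the highest day 14 change of the tested genes in both lines, DTX3L and IFI44 rose at day 7, IRF9 encodes the shared signalling factor, ISG15 is a standard marker that was not called, and MX1 is one that stayed under the signal floor. Capitals mark either motif.
IFITM1, chr11:313790-314089, plus strand: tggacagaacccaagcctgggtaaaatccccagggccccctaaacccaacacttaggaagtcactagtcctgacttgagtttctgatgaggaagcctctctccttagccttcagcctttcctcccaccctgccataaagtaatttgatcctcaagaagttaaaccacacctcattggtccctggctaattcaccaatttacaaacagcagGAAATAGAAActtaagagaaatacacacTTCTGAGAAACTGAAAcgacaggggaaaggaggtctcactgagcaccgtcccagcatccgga
DTX3L, chr3:122564088-122564387, plus strand: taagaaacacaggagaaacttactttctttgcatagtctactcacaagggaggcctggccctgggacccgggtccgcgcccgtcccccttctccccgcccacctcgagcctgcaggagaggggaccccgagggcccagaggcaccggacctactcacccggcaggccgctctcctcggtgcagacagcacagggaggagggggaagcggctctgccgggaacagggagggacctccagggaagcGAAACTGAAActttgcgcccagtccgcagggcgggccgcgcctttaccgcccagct
IFI44, chr1:78649539-78649838, plus strand: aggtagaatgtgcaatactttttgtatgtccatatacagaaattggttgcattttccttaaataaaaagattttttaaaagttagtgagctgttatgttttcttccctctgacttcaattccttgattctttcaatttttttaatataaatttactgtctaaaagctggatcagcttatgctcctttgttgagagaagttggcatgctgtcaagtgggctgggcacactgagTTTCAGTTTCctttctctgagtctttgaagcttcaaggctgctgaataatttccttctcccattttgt
IRF9, chr14:24161015-24161314, plus strand: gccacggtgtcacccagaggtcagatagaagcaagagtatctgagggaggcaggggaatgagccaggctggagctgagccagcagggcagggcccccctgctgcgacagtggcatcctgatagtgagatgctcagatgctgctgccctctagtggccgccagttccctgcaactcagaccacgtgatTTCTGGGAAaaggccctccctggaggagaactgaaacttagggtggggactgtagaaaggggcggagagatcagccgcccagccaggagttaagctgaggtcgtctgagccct
ISG15, chr1:1013247-1013546, plus strand: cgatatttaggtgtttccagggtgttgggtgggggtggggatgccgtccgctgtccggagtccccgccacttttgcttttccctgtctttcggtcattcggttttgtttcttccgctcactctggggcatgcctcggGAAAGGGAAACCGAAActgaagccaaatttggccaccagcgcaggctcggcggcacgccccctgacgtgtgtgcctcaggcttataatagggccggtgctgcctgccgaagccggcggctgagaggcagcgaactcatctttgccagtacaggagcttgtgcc
MX1, chr21:41420308-41420607, plus strand: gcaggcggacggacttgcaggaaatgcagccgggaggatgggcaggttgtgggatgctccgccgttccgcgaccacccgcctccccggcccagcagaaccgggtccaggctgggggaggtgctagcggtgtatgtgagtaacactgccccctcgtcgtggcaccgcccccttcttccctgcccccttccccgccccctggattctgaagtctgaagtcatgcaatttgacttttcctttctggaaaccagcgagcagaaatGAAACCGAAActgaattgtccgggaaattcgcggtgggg
IFITM1 carried 2 ISRE cores, starting 40 and 6 bases before the start site, with a GAS core overlapping the second. The ISRE core of DTX3L began 6 bases before its start site, and 137 bases of this window, with the same core, also lie in a window of PARP9 on the opposite strand (chr3:122564251-122564550). IFI44 had its core on the reverse strand, beginning 18 bases before the start, and the IRF9 window had a GAS core only. In ISG15, 2 ISRE cores overlapped, and in the MX1 window shown the core lay after the start site, beginning at base 12 from it. Of the other MX1 windows 1 held a core on the reverse strand, beginning at base -196 from its start site and overlapping a GAS core, so 2 of 3 windows of that gene had the ISRE letters. Among genes that rose in at least 1 comparison with day 0, 10 of 14 with a window had the ISRE letters and 6 of 14 the GAS letters. The counts were 4 of 5 and 0 of 5 for genes tested without a rise, and 10 of 17 and 5 of 17 for genes not tested. The ISRE letters were thus found in each class, those of low or flat genes included.

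Array medians lay between 5.25 and 5.31. The 2 clones differed more from each other (r = 0.958 to 0.965 across probe sets on the same day) than the 2 parental arrays did (r = 0.995 to 0.997). Each standard error (SE) below pools the spread of all 6 groups. It may therefore be too small for arrays labelled Sa/CD99 and too large for SaOS-2. CD99 went against its label: 1 of its 2 probe sets read 6.67 to 8.88 in arrays labelled Sa/CD99, against 11.3 to 11.9 in SaOS-2, and was lower on each day, while the other did not differ. The study's methods report that real-time PCR verified CD99 expression in every profiled sample, and those PCR values were not analysed here. Lines are therefore named by their labels throughout, and every direction between lines follows those labels. Of 6 osteoblast-lineage genes, 4 were above the signal floor defined below on all arrays. Of markers of other cells, 5 of 6 leukocyte and 4 of 4 endothelial genes were below that floor on all arrays, and CSF1R read 5.99 to 6.99. Of 4 epithelial genes 2 were below it on all arrays, while EPCAM (7.22 to 8.68) and KRT18 (7.86 to 9.89) were above it on all. EPCAM averaged 7.53 at day 14 and 8.15 at day 0 in arrays labelled Sa/CD99, a called fall, and its part in the results was not tested. The mean of 7 cell cycle genes was 10.61 to 10.75 at day 0, 10.43 to 10.60 at day 7 and 10.14 to 10.29 at day 14 in arrays labelled Sa/CD99, and 10.69 to 10.72, 10.57 to 10.62 and 10.35 to 10.38 in SaOS-2, and its part in the results was not tested.

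Levels of the interferon-stimulated genes spanned the range of the array. The floor was a signal of 100, or 6.64 on the log2 scale. In all, 22 of the 44 genes were above it on all 12 arrays, 10 on some and 12 on none. Probe sets differ in affinity, so the order of genes in the plot of levels is not an order of transcript amounts. The oligoadenylate synthetases OAS1, OAS2 and OASL, both MX GTPases, the RNA sensors IFIH1 and DHX58, TRIM22, XAF1, BST2, ISG20 and IFI27 did not reach it on any array. High readings came from the entry-blocking membrane proteins IFITM2 and IFITM3 (11.4 to 12.9 over both genes), the GTPase GBP1 and the ubiquitin-like modifier ISG15. Filters on signal and on spread left 27 and then 22 genes for testing, and no level below is corrected for the number of cells. In bulk RNA, fewer cells of a type and less RNA per cell cannot be told apart.

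**Figure D1:**
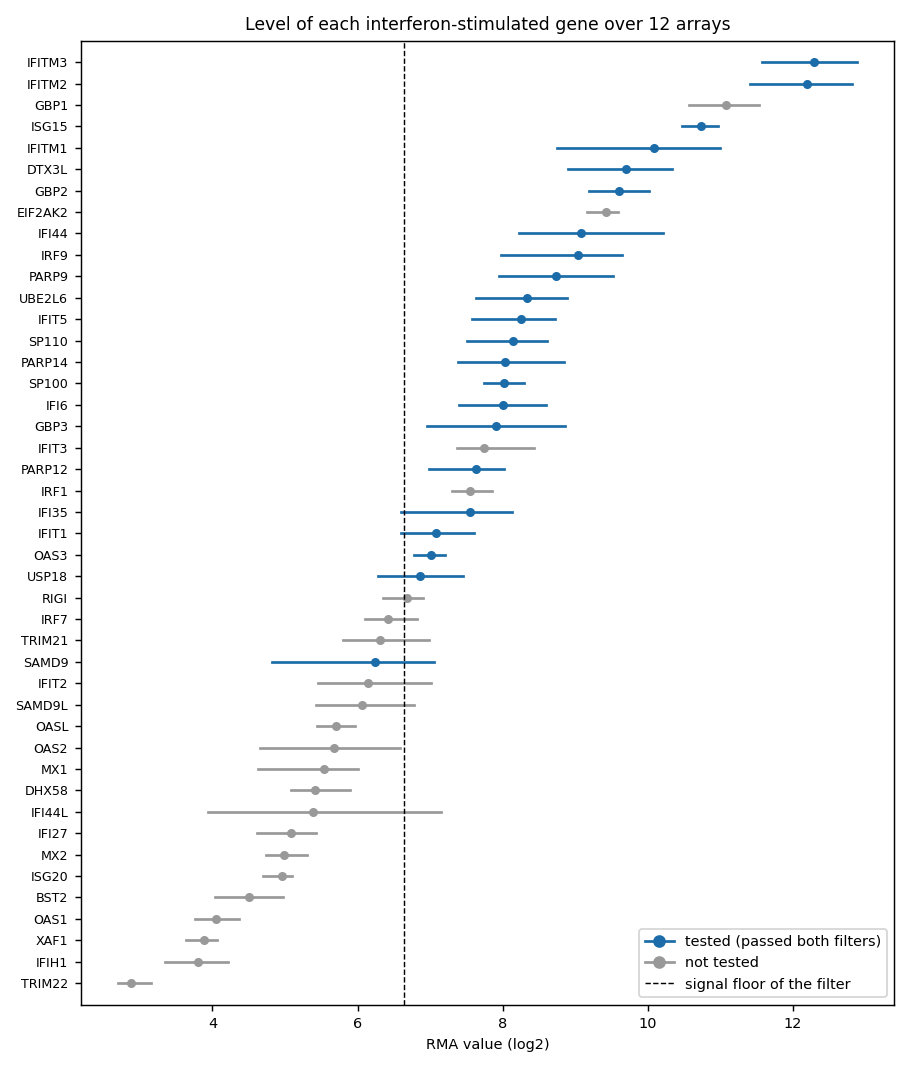
RMA value (log2) of 44 interferon-stimulated genes, 1 row per gene, with the point at the mean and the line from the lowest to the highest of 12 arrays. The dashed line is the signal floor (6.64 on the log2 scale), and 22 genes lie wholly above it while 12 lie wholly below.

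A gene was said to have risen or fallen, or was called, when limma's adjusted p was at most 0.05 and the change at least 1.5-fold (0.585 on the log2 scale). At day 7, 9 of 22 tested genes rose in arrays labelled Sa/CD99 (40.9%), against 10.4% of 12894 probe sets, and 14 of 22 rose in SaOS-2 (63.6%), against 12.8%. At day 14, 8 of 22 rose in arrays labelled Sa/CD99 (36.4%), against 6.39%, and 10 of 22 in SaOS-2 (45.5%), against 6.03%. None of the 22 fell in any of these 4 comparisons in this fit. Of all 12894 probe sets, 1003 and 1671 fell at days 7 and 14 in arrays labelled Sa/CD99, and 1113 and 1142 in SaOS-2. At such shares few falls would be found among any 22 probe sets. SAMD9 fell at day 14 in arrays labelled Sa/CD99 in the fit with the replicate number as a block (-0.91, limma adjusted p = 0.0354). Without the day 14 array of clone wt36, IFIT5, GBP3 and SAMD9 fell there (-0.63, -0.68 and -1.59, limma adjusted p = 0.00109 to 0.0127), and without the day 7 array of that clone GBP2 fell at day 7 (-0.65, adjusted p = 0.00297). Further probe sets of IFI44 and GBP2 also fell, as given with those genes. The median change of the tested genes at day 7 was 0.51 in arrays labelled Sa/CD99 and 0.84 in SaOS-2, against -0.01 and 0.00 for all probe sets. At day 14 it was 0.26 and 0.55, against -0.09 and -0.11. A gene that passed the filters only through the days on which it was high had to differ, so all 44 genes were also tested without filters. In that fit 11 and 10 genes rose at days 7 and 14 in arrays labelled Sa/CD99, against 4.68% and 1.85% of 54613 probe sets, and 21 and 13 in SaOS-2, against 5.38% and 1.87%. The comparisons of days 7 and 14 share their day 0 arrays. IRF9, IFITM1, IFITM2, IFITM3, IFI35 and PARP9 rose on both days in both lines.

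**Figure D2:**
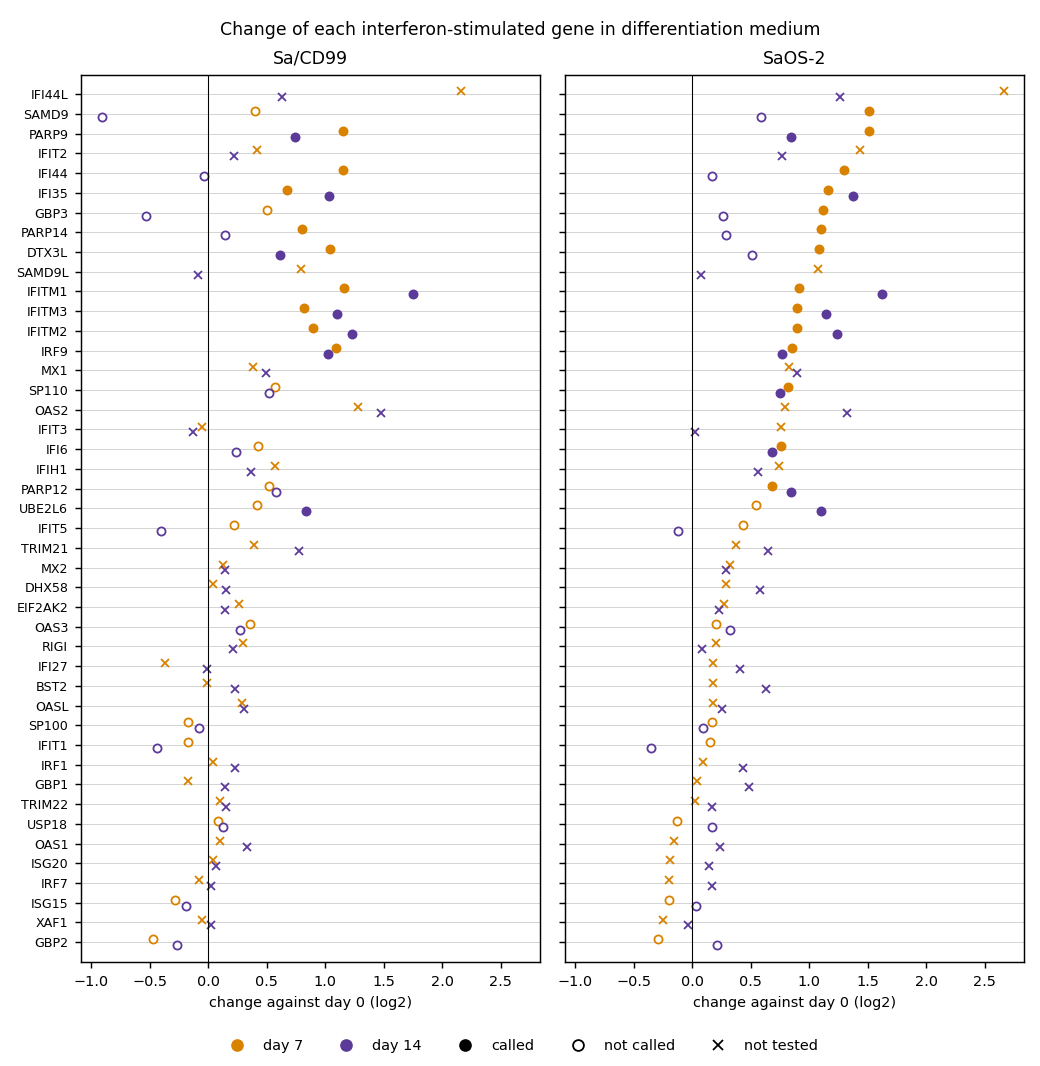
Change against day 0 (log2) of 44 interferon-stimulated genes at day 7 (orange) and day 14 (purple), in arrays labelled Sa/CD99 (left) and SaOS-2 (right). Filled circles passed the test, open circles did not and crosses were not tested, and at day 7 there are 9 filled circles in the left panel and 14 in the right.

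The IFITM family, small membrane proteins that block fusion of viruses with the cell, rose most steadily. IFITM1 read 9.25 and 8.75 at day 0, 10.35 and 9.98 at day 7 and 10.64 and 10.86 at day 14 in clones wt22 and wt36, and 9.42 and 9.31, 10.34 and 10.22, and 10.99 and 10.98 in SaOS-2. All later arrays stood above all day 0 arrays of the same line, and those of day 14 above those of day 7. The change was 1.16 ± 0.18 (SE, n = 2 arrays a group; limma adjusted p = 0.00156) at day 7 and 1.75 ± 0.18 (adjusted p = 0.000282) at day 14 in arrays labelled Sa/CD99. In SaOS-2 it was 0.91 ± 0.18 (limma adjusted p = 0.00433) and 1.62 ± 0.18 (adjusted p = 0.000456). IFITM2 read 11.47 and 11.41, then 12.41 and 12.27, then 12.53 and 12.82 in the clones on days 0, 7 and 14, and 11.57 and 11.45, 12.42 and 12.38, and 12.75 and 12.75 in SaOS-2. Its day 14 change was 1.23 in arrays labelled Sa/CD99 and 1.24 in SaOS-2. IFITM3 changed by 0.82 and 1.10 in arrays labelled Sa/CD99 and by 0.89 and 1.14 in SaOS-2 at days 7 and 14, with no overlap of arrays. The probe sets of IFITM2 and IFITM3 are of a kind that can bind related transcripts, and these genes are near-identical copies, so signal between them may be shared. The lines differed by -0.36 to 0.08 (labelled Sa/CD99 minus SaOS-2) in these genes over the 3 days, and no difference was called.

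IRF9, the DNA-binding part of ISGF3, also rose on both days. It read 8.43 and 7.98 at day 0, 9.65 and 8.93 at day 7 and 9.46 and 8.99 at day 14 in clones wt22 and wt36, and 8.67 and 8.58, 9.41 and 9.54, and 9.38 and 9.41 in SaOS-2. Clone wt22 was above clone wt36 on each day, and both moved in step, by 1.22 and 0.95 at day 7. The changes were 1.09 and 1.02 (SE 0.24; limma adjusted p = 0.00895 and 0.0118) in arrays labelled Sa/CD99 and 0.85 and 0.77 (adjusted p = 0.0217 and 0.0391) in SaOS-2. These calls were among the least firm: without either day 0 or either day 7 array of SaOS-2 the day 7 call there was lost (adjusted p = 0.0750 to 0.107), as was the call at day 14 without any of the 6 SaOS-2 arrays (adjusted p = 0.0608 to 0.163). In arrays labelled Sa/CD99 the calls at days 7 and 14 were lost without the day 0 array of clone wt36 (adjusted p = 0.0567 and 0.0544), and that at day 14 without the day 14 array of clone wt22 (adjusted p = 0.0707). IRF1, a factor of the type II response, read 7.30 to 7.86 over all arrays and was not tested because its spread was small. Another IRF1 probe set, of lower mean, rose by 0.62 at day 14 in SaOS-2 (adjusted p = 0.0102) and changed by 0.36 in arrays labelled Sa/CD99 (adjusted p = 0.0625). IRF7, which amplifies type I interferon transcription, read 6.10 to 6.82.

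IFI35, an interferon-induced leucine zipper protein, read 7.11 and 6.89 at day 0, 8.10 and 7.25 at day 7 and 8.12 and 7.94 at day 14 in clones wt22 and wt36, and 6.77 and 6.60, 7.86 and 7.82, and 8.13 and 7.99 in SaOS-2. The 2 clones parted at day 7, when clone wt22 stood 0.99 above its day 0 value and clone wt36 0.35. The changes were 0.67 and 1.03 in arrays labelled Sa/CD99 (limma adjusted p = 0.0473 and 0.0091) and 1.16 and 1.37 in SaOS-2 (adjusted p = 0.00473 and 0.00337). The day 7 call in arrays labelled Sa/CD99 was lost without any 1 of 11 arrays, the day 7 array of clone wt36 being the exception (adjusted p = 0.0524 to 0.238 in those 11 fits). UBE2L6, the enzyme that carries ISG15 to its targets, read 7.86 and 8.21, then 8.46 and 8.46, then 8.88 and 8.86 in the clones on days 0, 7 and 14, and 7.71 and 7.63, 8.22 and 8.19, and 8.84 and 8.69 in SaOS-2. It had risen at day 14, by 0.84 ± 0.12 in arrays labelled Sa/CD99 (adjusted p = 0.00152) and 1.10 ± 0.12 in SaOS-2 (adjusted p = 0.000456, limma). The day 7 changes, 0.42 and 0.54, had adjusted p = 0.024 and 0.00788 but were under 1.5-fold.

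ISG15 itself did not follow its conjugating enzyme. It read 10.97 and 10.97 at day 0, 10.88 and 10.50 at day 7 and 10.88 and 10.67 at day 14 in clones wt22 and wt36, and 10.72 and 10.69, 10.53 and 10.47, and 10.73 and 10.73 in SaOS-2. The changes were between -0.28 and 0.03, and none was called (limma adjusted p = 0.126 to 0.89). USP18, which removes ISG15 and dampens receptor signalling, read 6.28, 6.47 and 6.56 in clone wt22 and 7.46, 7.44 and 7.44 in clone wt36 on days 0, 7 and 14, against 6.58 to 6.95 in SaOS-2. Here the clones stood apart from each other on all days and time moved the gene little.

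OAS2, which makes the second messenger that activates a ribonuclease, stayed below the floor on every array, between 4.65 and 6.58, and was not tested with filters. Its values were 4.81 and 4.65 at day 0, 5.80 and 6.21 at day 7 and 6.58 and 5.84 at day 14 in clones wt22 and wt36, and 4.88 and 5.15, 5.84 and 5.76, and 6.31 and 6.35 in SaOS-2. In the fit without filters it rose on this probe set in all 4 comparisons, by 1.28 and 1.48 in arrays labelled Sa/CD99 (limma adjusted p = 0.00345 and 0.00253) and by 0.79 and 1.32 in SaOS-2 (adjusted p = 0.0352 and 0.00509). OAS2 had 3 probe sets. Another, of lower mean, changed by 0.53 and 0.85 in arrays labelled Sa/CD99 and by 0.52 and 0.85 in SaOS-2, so under 1.5-fold at day 7. The last changed by -0.03 to 0.10. OAS3 read 6.78 to 7.21 over all arrays and its changes, 0.20 to 0.36, were under 1.5-fold. A second OAS3 probe set, of lower mean, changed by 0.75 and 0.78 at day 14 in the 2 lines (adjusted p = 0.00651 and 0.00634). OAS1 (3.76 to 4.37) and OASL (5.44 to 5.96) were not called against day 0 in the fit without filters.

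**Figure D3:**
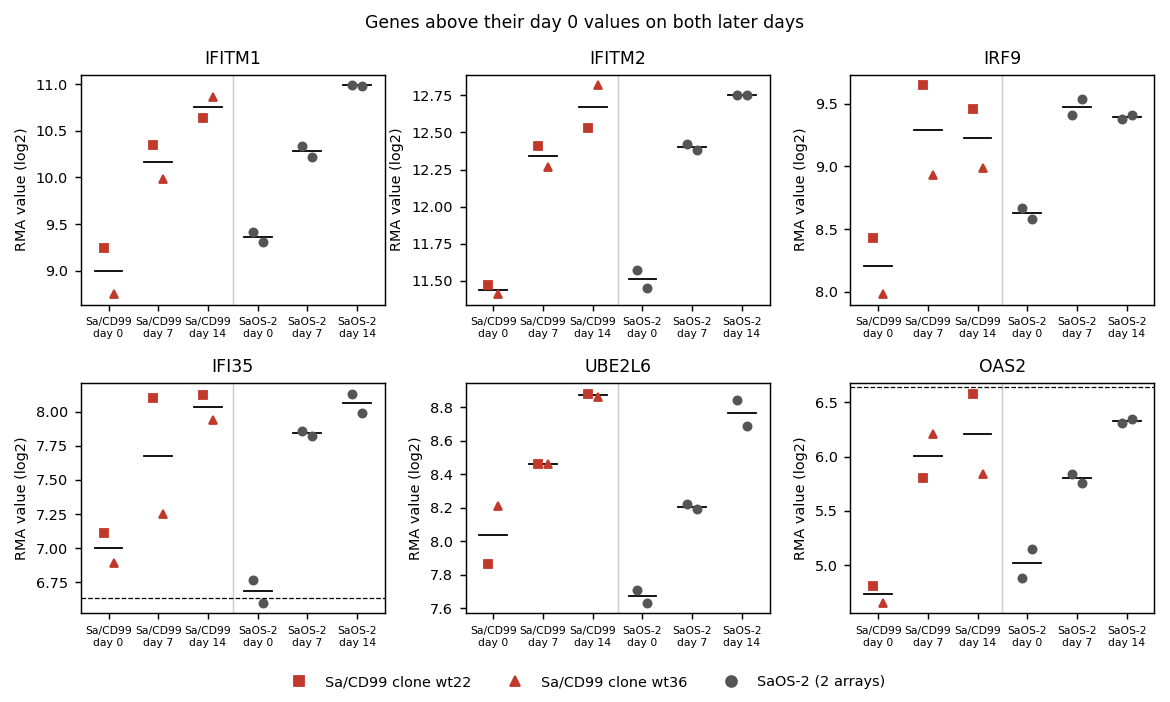
RMA value (log2) on each array of IFITM1, IFITM2, IRF9, IFI35, UBE2L6 and OAS2 by day, arrays labelled Sa/CD99 on the left (square, clone wt22; triangle, clone wt36) and SaOS-2 on the right (circles), with bars at the means of 2 arrays. In each panel all arrays of days 7 and 14 lie above those of day 0 of the same line, and OAS2 lies below the dashed floor throughout.

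A second group had its high point at day 7 on the probe sets used here. PARP9 and DTX3L, partners in a complex that modifies histones and viral proteins and whose promoter windows overlap, both rose at day 7. PARP9 read 8.10 and 8.09 at day 0, 9.0 and 9.48 at day 7 and 8.61 and 9.06 at day 14 in clones wt22 and wt36, and 7.95 and 7.99, 9.44 and 9.52, and 8.89 and 8.73 in SaOS-2. The change was 1.15 and 0.74 in arrays labelled Sa/CD99 and 1.51 and 0.84 in SaOS-2 at days 7 and 14 (limma adjusted p = 0.000484 to 0.0123). The day 14 calls of PARP9 were lost without the day 14 array of clone wt36 (adjusted p = 0.056) in arrays labelled Sa/CD99, and without either day 0 array or the first day 14 array in SaOS-2 (adjusted p = 0.0575 to 0.0708). A second PARP9 probe set, of lower mean, had no high point at day 7, with means of 6.49, 7.32 and 7.51 on days 0, 7 and 14 in arrays labelled Sa/CD99 and of 7.02, 7.58 and 7.63 in SaOS-2. It rose by 0.82 and 1.01 in arrays labelled Sa/CD99 (limma adjusted p = 0.0123 and 0.00543) and by 0.61 at day 14 in SaOS-2 (adjusted p = 0.042), while its day 7 change of 0.56 in SaOS-2 was under 1.5-fold. DTX3L read 9.23 and 8.90, then 10.04 and 10.17, then 9.53 and 9.82 in the clones on days 0, 7 and 14, and 9.24 and 9.27, 10.34 and 10.32, and 9.72 and 9.81 in SaOS-2. It rose by 1.04 ± 0.13 and 1.08 ± 0.13 at day 7 (limma adjusted p = 0.000694 and 0.000606). At day 14 its change of 0.61 in arrays labelled Sa/CD99 was called and its change of 0.51 in SaOS-2 was under 1.5-fold. Without the day 0 or the day 14 array of clone wt36 the day 14 change in arrays labelled Sa/CD99 was 0.45 or 0.46, also under 1.5-fold. PARP14, a mono-ADP-ribosyltransferase, read 7.67 and 7.46, then 8.26 and 8.48, then 7.39 and 8.02 in the clones, and 7.79 and 7.67, 8.81 and 8.85, and 8.0 and 8.05 in SaOS-2. It rose at day 7 by 0.80 and 1.10 (limma adjusted p = 0.01 and 0.00222), the first call being lost without the day 0 array of clone wt36 (adjusted p = 0.055). By day 14 clone wt22 was below its day 0 value while clone wt36 was above. PARP12, which acts on translation of viral RNA, behaved otherwise, with changes of 0.52 and 0.58 in arrays labelled Sa/CD99, under 1.5-fold, and of 0.68 and 0.84 in SaOS-2, both called. Without the first day 7 array of SaOS-2 its day 7 change was 0.57, under 1.5-fold.

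IFI44, a cytoplasmic protein with a GTP-binding motif, read 8.60 and 8.22 at day 0, 9.70 and 9.41 at day 7 and 8.30 and 8.45 at day 14 in clones wt22 and wt36, and 8.77 and 9.02, 10.21 and 10.18, and 9.14 and 8.99 in SaOS-2. The day 7 arrays stood clear of all others in both lines, and those of day 14 overlapped those of day 0. The day 7 rise was 1.15 ± 0.16 in arrays labelled Sa/CD99 (limma adjusted p = 0.000874) and 1.30 ± 0.16 in SaOS-2 (adjusted p = 0.000508). A second IFI44 probe set, of lower mean, rose by 1.08 and 1.21 at day 7, and at day 14 it fell by 0.68 in arrays labelled Sa/CD99 (limma adjusted p = 0.00263) and changed by -0.22 in SaOS-2. The neighbour of IFI44, IFI44L, which encodes a related protein, read 3.94 and 4.15, then 5.86 and 6.54, then 3.99 and 5.35 in the clones, and 4.44 and 4.55, 7.14 and 7.16, and 5.76 and 5.75 in SaOS-2. It exceeded the floor only on the 2 SaOS-2 arrays of day 7. Without filters it rose by 2.16 ± 0.34 and 2.66 ± 0.34 at day 7 (limma adjusted p = 0.00264 and 0.000839), the changes of highest size among the 44 genes in both lines.

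GBP3, a guanylate-binding GTPase, read 7.68 and 7.58 at day 0, 8.13 and 8.14 at day 7 and 6.95 and 7.26 at day 14 in clones wt22 and wt36, and 7.71 and 7.74, 8.86 and 8.82, and 7.91 and 8.06 in SaOS-2. It rose by 1.12 ± 0.12 in SaOS-2 at day 7 (limma adjusted p = 0.000284), while in arrays labelled Sa/CD99 the change was 0.50 at day 7 and -0.53 at day 14 (adjusted p = 0.0102 and 0.00875), both under 1.5-fold. The clones thus ended below their own start and the parental arrays above theirs. GBP1 read 10.57 to 11.54 over all arrays and was not tested for lack of spread. A second GBP1 probe set was tested and was not called against day 0, with changes of -0.48 to 0.35. GBP2 changed by -0.47 and -0.27 in arrays labelled Sa/CD99 and by -0.29 and 0.21 in SaOS-2, none of them called. A second GBP2 probe set, of lower mean, fell by 0.59 at day 7 in arrays labelled Sa/CD99 (limma adjusted p = 0.0073), and its day 14 change there of -0.46 (adjusted p = 0.0192) was under 1.5-fold. SAMD9, a growth-restraining antiviral factor, read 6.50 and 6.32, then 6.65 and 6.97, then 4.82 and 6.19 in the clones, and 5.43 and 5.65, 7.05 and 7.06, and 6.02 and 6.25 in SaOS-2. It exceeded the floor only on the 4 arrays of day 7, and so passed the signal filter only through that day. SAMD9 was also called at day 7 in SaOS-2 in the fit without filters. It rose by 1.51 ± 0.35 in SaOS-2 at day 7 (limma adjusted p = 0.00874), a call lost without the first day 0 array (adjusted p = 0.0605). Its paralogue SAMD9L read 5.68 and 6.14 at day 0 and 6.62 and 6.78 at day 7 in the clones, and 5.78 and 5.43, and 6.70 and 6.66 in SaOS-2. Without filters it rose at day 7 by 0.79 and 1.07, on a probe set that exceeded the floor on 3 of 12 arrays. Its other probe sets, of lower mean and not tested with filters, both changed then by 0.31 in arrays labelled Sa/CD99. In SaOS-2 they changed by 0.82 and 0.36.

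IFI6, a mitochondrial protein that restrains cell death, read 7.89 and 7.88 at day 0, 8.60 and 8.02 at day 7 and 8.30 and 7.95 at day 14 in clones wt22 and wt36, and 7.44 and 7.40, 8.26 and 8.09, and 8.12 and 8.07 in SaOS-2. It rose in SaOS-2 by 0.76 and 0.68 (limma adjusted p = 0.0105 and 0.0218), whereas the changes of 0.43 and 0.24 in arrays labelled Sa/CD99 did not pass. The rise at day 7 was lost without either day 0 array or the first day 7 array of SaOS-2 (adjusted p = 0.0543 to 0.0757), and that at day 14 without any day 0 or day 14 array of SaOS-2 (adjusted p = 0.0885 to 0.110). SP110, a nuclear body protein, rose in SaOS-2 by 0.82 and 0.75 and changed by 0.57 and 0.52 in arrays labelled Sa/CD99, just under 1.5-fold. Its other 4 probe sets changed by 0.63 to 0.95 at day 7 in arrays labelled Sa/CD99 with adjusted p at most 0.00729, so for SP110 the difference in calls between the lines turned on the probe set. SP100, of the same bodies, changed by -0.17 to 0.17.

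Within the IFIT family, whose products bind foreign RNA, members differed. IFIT1 read 7.43 and 7.52, then 7.00 and 7.61, then 6.90 and 7.16 in clones wt22 and wt36 on days 0, 7 and 14, and 6.88 and 7.06, 7.13 and 7.11, and 6.65 and 6.60 in SaOS-2, and no change with day 0 was called. IFIT5 changed by -0.40 to 0.43, also without a call, but a second IFIT5 probe set, of lower mean, rose by 0.76 in SaOS-2 at day 7 (limma adjusted p = 0.00485) and changed by 0.37 in arrays labelled Sa/CD99 (adjusted p = 0.0826). IFIT2 read 5.94 and 5.60, then 6.31 and 6.07, then 6.03 and 5.96 in the clones, and 5.67 and 5.45, 7.02 and 6.97, and 6.42 and 6.25 in SaOS-2. IFIT3 read 7.70 and 7.52, then 7.75 and 7.37, then 7.53 and 7.43 in the clones, and 7.64 and 7.70, 8.42 and 8.44, and 7.70 and 7.69 in SaOS-2. IFIT2 exceeded the floor only on the 2 SaOS-2 arrays of day 7. A second IFIT2 probe set, of lower mean, changed then by 0.25 in arrays labelled Sa/CD99 and by 0.60 in SaOS-2. Neither IFIT2, on either probe set, nor IFIT3 on the probe set used was tested with filters. Without filters both rose in SaOS-2 at day 7 on the probe sets used, by 1.43 ± 0.14 (limma adjusted p = 0.000174) and 0.76 ± 0.13 (adjusted p = 0.00346). Neither was called there in arrays labelled Sa/CD99 (changes of 0.42 and -0.05). A second IFIT3 probe set, which was tested with filters, changed by 0.35 at day 7 in arrays labelled Sa/CD99 (limma adjusted p = 0.0498, under 1.5-fold) and rose by 0.78 in SaOS-2 (adjusted p = 0.00161).

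MX1, the GTPase that traps viral nucleocapsids, was below the floor on all arrays. It read 5.28 and 5.34 at day 0, 5.64 and 5.74 at day 7 and 5.59 and 6.0 at day 14 in clones wt22 and wt36, and 4.62 and 5.16, 5.77 and 5.68, and 5.66 and 5.91 in SaOS-2. Without filters it rose in SaOS-2 by 0.83 and 0.89 (limma adjusted p = 0.0131 and 0.0149) and was not called in arrays labelled Sa/CD99, where it changed by 0.38 and 0.49 and the arrays of days 7 and 14 lay above those of day 0. IFI27 read 4.62 to 5.43 and BST2, the tether of budding virus, 4.04 to 4.97. BST2 passed in the fit without filters at day 14 in SaOS-2 (0.63, limma adjusted p = 0.0444). IFIH1, an RNA sensor, passed there at day 7 (0.74, adjusted p = 0.0185) at levels of 3.35 to 4.22. TRIM21, an antibody receptor of the cytosol, passed at day 14 in arrays labelled Sa/CD99 (0.78, adjusted p = 0.0273), where it read 6.98 and 6.48, against 5.80 and 6.10 at day 0, and it exceeded the floor on 2 of 12 arrays. Values under the floor, such as those of IFI27, BST2 and IFIH1, are imprecise measures of transcript amount. EIF2AK2, the RNA-activated kinase that halts translation, was well above the floor (9.17 to 9.59) and was not called against day 0 in the unfiltered fit. The same held for RIGI (6.35 to 6.90) and DHX58 (5.08 to 5.90), which sense viral RNA, for MX2 (4.74 to 5.30), for the exonuclease ISG20 (4.70 to 5.09), and for XAF1 (3.63 to 4.06) and TRIM22 (2.70 to 3.15). For RIGI the probe set used changed by 0.30 and 0.20 at day 7 in the 2 lines. Its other probe sets, of lower mean and not tested with filters, changed then by 0.52 and 0.49 in arrays labelled Sa/CD99 and by 0.67 and 0.56 in SaOS-2.

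**Figure D4:**
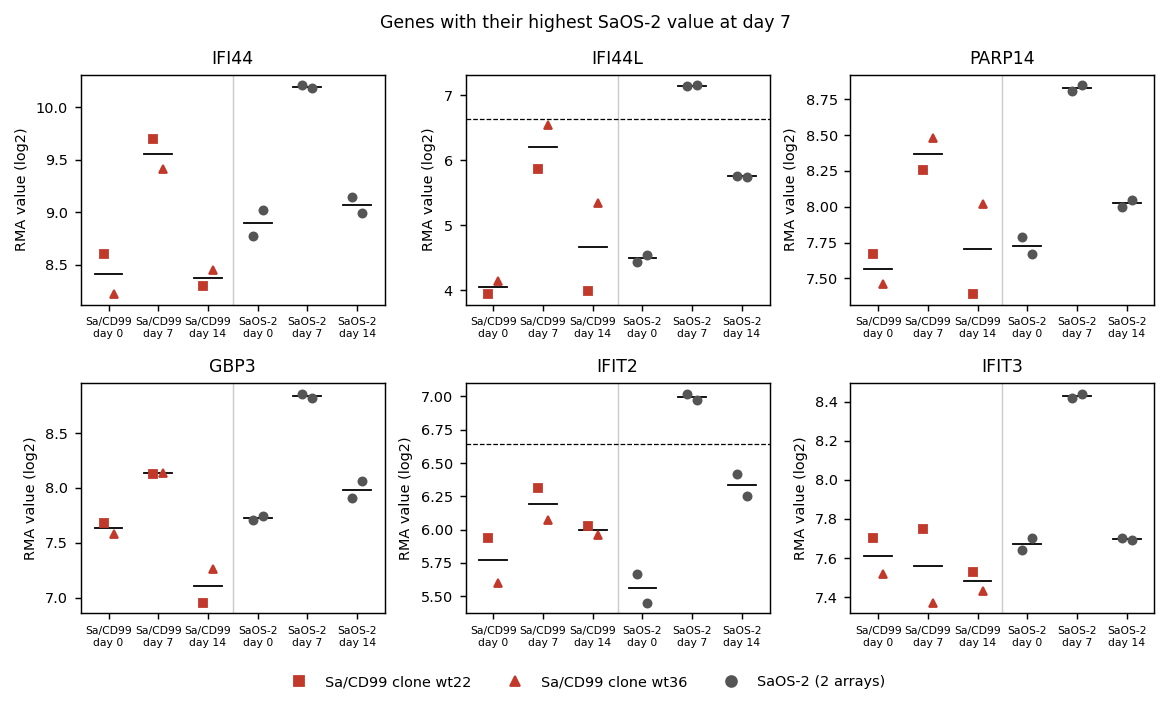
RMA value (log2) on each array of IFI44, IFI44L, PARP14, GBP3, IFIT2 and IFIT3 by day, arrays labelled Sa/CD99 on the left (square, clone wt22; triangle, clone wt36) and SaOS-2 on the right (circles), with bars at the means of 2 arrays and the floor dashed where it falls in range. In SaOS-2 both day 7 arrays are the highest of the 6 in each panel, while for IFIT3 the clones read 7.37 to 7.75 with no such high point.

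Days 14 and 7 were compared directly as an addition made after the data were seen. In arrays labelled Sa/CD99, 5 of 22 tested genes were lower at day 14 and 1 was higher, against 15.6% of all probe sets lower. In SaOS-2 4 were lower and 1 was higher, against 18.2% lower, so the share of members that fell was near that of all probe sets. IFI44 fell by 1.19 and 1.13 (limma adjusted p = 0.00105 and 0.00111), GBP3 by 1.03 and 0.86 (adjusted p = 0.000508 and 0.00101) and PARP14 by 0.66 and 0.81 (adjusted p = 0.0207 and 0.00748) in arrays labelled Sa/CD99 and in SaOS-2. SAMD9 and IFIT5 were also lower in arrays labelled Sa/CD99 (changes of -1.31 and -0.62) and PARP9 in SaOS-2 (-0.67). SAMD9 had passed the signal filter only through its day 7 arrays, and its call was kept without filters. The second probe set of IFIT5 fell in both lines, by 0.71 and 0.69 (limma adjusted p = 0.00758 and 0.00639), that of PARP9 changed by 0.19 and 0.05 without a call, and that of GBP1 rose by 0.71 in SaOS-2 (adjusted p = 0.0122). IFITM1 was the 1 gene higher at day 14 than at day 7, by 0.59 and 0.70 (limma adjusted p = 0.0284 and 0.0113). Without filters 7 and 8 of the 44 genes were lower, against 6.48% and 7.68%, IFI44L (-1.53 and -1.40) and SAMD9L (-0.88 and -1.01) among them in both lines. The other SAMD9L probe sets changed by -0.31 and -0.03 in arrays labelled Sa/CD99 and by -0.54 and 0.01 in SaOS-2. The count of 6 calls in arrays labelled Sa/CD99 became 2 without the day 7 array of clone wt36 and 3 without the day 14 array of clone wt22, and the 5 of SaOS-2 became 3 without its second day 7 array. The IFITM1 call was lost in 3 of the 4 fits that left out 1 array of the days and line compared, with adjusted p = 0.0505 to 0.147 in arrays labelled Sa/CD99 and 0.056 to 0.0701 in SaOS-2. The PARP9 call in SaOS-2 was lost without either day 7 array or the second of day 14 (adjusted p = 0.0557 to 0.0852).

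Few interferon-stimulated genes were called between the lines, and with 2 arrays a group this does not show that their levels were alike. At day 0 none of 22 tested genes was called by limma, against 1.47% of probe sets, and 7 (31.8%) had an unadjusted p under 0.05, against 13.0% of probe sets. The median difference was 0.06 (labelled Sa/CD99 minus SaOS-2). At days 7 and 14 the medians were -0.14 and -0.05, and 1 gene was called on each day, against 1.81% and 1.46%, while 27.3% and 22.7% of members had an unadjusted p under 0.05, against 22.1% and 17.0% of probe sets. That gene was GBP3. At day 7 it read 8.13 and 8.14 in arrays labelled Sa/CD99, against 8.86 and 8.82 in SaOS-2, a difference of -0.71 ± 0.12 (limma adjusted p = 0.0182). At day 14 the values were 6.95 and 7.26 in arrays labelled Sa/CD99, against 7.91 and 8.06 in SaOS-2, a difference of -0.88 ± 0.12 (adjusted p = 0.00865). At day 0 the difference was -0.09. The day 7 call was lost without either SaOS-2 array of that day or the array of clone wt36 (adjusted p = 0.0725 to 0.187), and the day 14 call without either SaOS-2 array of that day (adjusted p = 0.0759 and 0.131). In every such fit the difference stayed between -0.69 and -0.95.

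IFI44 was lower in arrays labelled Sa/CD99 by a margin that depended on the probe set and the model. On the probe set used here the differences were -0.48, -0.64 and -0.69 at days 0, 7 and 14 (limma adjusted p = 0.194, 0.0679 and 0.065), none of them called. With the replicate number as a block, the last 2 were called (adjusted p = 0.0406 and 0.0376). Its other probe set, of lower mean, differed by -0.84, -0.97 and -1.30 (adjusted p = 0.00924, 0.00533 and 0.00088). The second IFIT3 probe set differed by -0.48 at day 7 (adjusted p = 0.0773). IFIT2 and IFIT3, not tested with filters, were lower in arrays labelled Sa/CD99 at day 7 without them, by -0.80 (adjusted p = 0.0309) and -0.87 (limma adjusted p = 0.0144). They made up 3 calls at that day with GBP3, against 0.546% of probe sets, while day 0 had none (0.515%) and day 14 had GBP3 alone (0.428%). The second IFIT2 probe set, not tested with filters, differed by -0.47 at day 7. On the probe set used, IFIT2 was under the floor at day 7 in arrays labelled Sa/CD99. SP100 differed by -0.50 at day 7 (adjusted p = 0.0306), under 1.5-fold.

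Whether the lines responded differently to time was tested by the interaction of line and day. No member was called at day 7 or at day 14, and 0% and 0.0155% of probe sets were. At an unadjusted p under 0.05 there were 3 members (13.6%) on each day, against 4.22% and 3.62% of probe sets, GBP3, SP100 and SAMD9 at day 7 and GBP3, SAMD9 and GBP2 at day 14. The extra change of GBP3 in arrays labelled Sa/CD99 was -0.62 and -0.78 (SE 0.16; adjusted p = 0.999 and 0.78), and that of SAMD9 was -1.11 and -1.50 (SE 0.49; limma adjusted p = 0.999 for both). With the median SE of an interaction at 0.20, the 5 genes that rose at day 7 in SaOS-2 and were not called in arrays labelled Sa/CD99 (GBP3, IFI6, SP110, PARP12 and SAMD9) are not shown to differ between the lines in their response to time, although GBP3 differed in level at days 7 and 14 as given above. The clones moved alike in some genes and not in others: IFITM1, IFITM2, IFITM3, IRF9 and IFI44 changed by 0.79 to 1.23 at day 7 in both clones, whereas IFI6 changed by 0.72 in clone wt22 and 0.14 in clone wt36.

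Other genes of the pathway were read from a list of ligands, receptors, kinases, regulators and further interferon-stimulated genes. Of its 50 genes with a probe set, 20 were tested. At day 7, 6 rose in arrays labelled Sa/CD99, against 10.4% of all probe sets, and 10 in SaOS-2, against 12.8%. At day 14 the counts were 6 and 5, against 6.39% and 6.03%, and 1 gene fell in arrays labelled Sa/CD99, where 1671 of 12894 probe sets fell. All 8 interferon genes of this list with a probe set, IFNB1 and IFNG included, were below the floor on all arrays (2.69 to 5.04). IFNA1 was the only IFNA gene listed, and interferon genes outside the list were not read. None of 3 tested receptor genes was called against day 0. IFNAR1, a chain of the type I receptor, changed by 0.04 and -0.48 in arrays labelled Sa/CD99 and by 0.32 and -0.41 in SaOS-2 at days 7 and 14. JAK1, the kinase shared by all 3 interferon types, rose by 0.63 in SaOS-2 at day 7 (limma adjusted p = 0.000801) and changed by 0.38 in arrays labelled Sa/CD99.

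The negative regulators SOCS1 and SOCS3, which inhibit JAK kinases, rose in all 4 comparisons. SOCS1 read 7.21 and 7.20 at day 0, 8.44 and 8.12 at day 7 and 8.87 and 8.64 at day 14 in clones wt22 and wt36, and 7.14 and 6.99, 8.16 and 8.14, and 8.50 and 8.53 in SaOS-2. SOCS3 read 9.13 and 8.89, then 9.72 and 10.06, then 10.67 and 10.59 in the clones, and 9.08 and 9.37, 10.18 and 10.08, and 10.77 and 10.83 in SaOS-2. No array of day 7 or 14 overlapped those of day 0. Their day 14 changes were 1.55 and 1.62 in arrays labelled Sa/CD99 and 1.45 and 1.57 in SaOS-2 (limma adjusted p = 0.000108 to 0.000195). LGALS3BP, a secreted glycoprotein, the DNA sensor IFI16 and EPSTI1 also rose in all 4. IFI16 read 9.81 and 9.23 at day 0 and 9.91 and 10.31 at day 14 in clones wt22 and wt36. Its day 14 rise in arrays labelled Sa/CD99 thus came mostly from clone wt36. TBK1, the kinase downstream of the RNA and DNA sensors, fell by 0.81 in arrays labelled Sa/CD99 at day 14 (limma adjusted p = 0.00759). It read 9.62 and 9.27 at day 0 and 8.36 and 8.91 at day 14 in clones wt22 and wt36, a larger fall in clone wt22. No gene of this list was called between the lines on any day. RSAD2, CMPK2, CXCL10 and CXCL11, which interferon induces strongly in many cells, read 2.80 to 4.47 and were below the floor on all arrays.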

How the data were processed

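The authors deposited log2 expression values made with RMA, which corrects background, normalises arrays together and summarises each probe set. Versions of affy and RMA, the tools credited in the submitters' processing notes, and a genome build are not given in the sources used here. Probe sets were named from the platform annotation, updated by gene ID to GRCh38.p14 (41043 names matched, 54 kept). The 62 controls among 54675 probe sets were left out. Following the study, a probe set was dropped when 9 or more of the 12 arrays read 100 or lower (18677 of 54613 stayed) and then when its interquartile range did not exceed the median, 0.219, which left 12894.

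A group-means model of all 12 arrays was fitted by limma (version 3.58.1, R 4.3.3; 3.183 prior and 6 residual degrees of freedom; median SE 0.14) with lmFit and eBayes, with Benjamini-Hochberg adjustment over the probe sets tested, and the script was tested on simulated data. Calls needed an adjusted p of at most 0.05 and a change of at least 1.5-fold, the study's thresholds. Clone numbers pair the arrays labelled Sa/CD99 across days, since a number marks 1 transfected line; differences between clones correlated with r = 0.58, 0.32 and 0.63 between days, against -0.04, 0.24 and -0.05 for the parental arrays, whose numbers mark nothing further. A fit with the number as a block was an alternative, beside other filters, scalings, sample sets and summaries of probe sets. The genes named were, per comparison, called members whose arrays did not overlap (up to 8 in each direction) and a fixed group (ISG15, MX1, IFI27, IFI6, IFITM1, IFIT1, IRF1, IRF9, STAT2, GBP1, GBP3 and BST2), with up to 4 called pathway genes and IFNAR1 and JAK1. Other genes were named to account for every member. Members, lists and this rule were chosen with earlier results of these data known, and the comparison of days 14 and 7 was added after the data were seen. No depth exists for arrays, and their number limits the precision.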

Additional observations from a re-analysis of the deposited data

How the results depend on the processing

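Members called are counted here in both directions, and no call reversed under any alternative. Of 54 calls, the fit with the replicate number as a block kept 54 and raised the counts between lines to 2 at day 7 and 2 at day 14 (1 each without the block, the addition being IFI44). It changed no other count by over 1.5 times. In another alternative, comparisons of days were fitted on all arrays of 1 line, and those between lines on the arrays of 1 day. It kept 41 of 54 and gave 4 genes for day 14 in arrays labelled Sa/CD99 (8 with all arrays). It gave 0 and 0 between lines at days 7 and 14, and 2 for day 14 against day 7 in arrays labelled Sa/CD99 (6). That last count was 3 after quantile normalisation, 3 with array weights and 10 with no minimum fold. No minimum fold gave 15 for day 7 in arrays labelled Sa/CD99 (9), 2 between lines at day 7 and 11 for day 14 against day 7 in SaOS-2 (5), which was 9 without filters. Between lines at day 7, the signal filter alone gave 2 and no filter 3. The mean of each gene's probe sets gave 1, 3 and 2 between lines at days 0, 7 and 14. Leaving out 1 array gave 8 to 13 and 7 to 10 for days 7 and 14 in arrays labelled Sa/CD99, 11 to 14 and 7 to 11 in SaOS-2, 0 to 1, 0 to 2 and 0 to 2 between lines, 2 to 8 and 3 to 6 for day 14 against day 7, and 0 and 0 to 1 for the interactions, the 1 arising without the day 14 array of clone wt36. A lone remaining array was assumed to vary like the other groups. The causes were not tested.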
